A study of Mus musculus with 32 samples.

Results

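The genes examined here encode 10 proteins of branched-chain amino acid (BCAA) breakdown, and they were taken from the count table by symbol: Bcat2, Bckdha, Bckdhb, Dbt, Dld, Bckdk, Ppm1k, Slc25a44, Mccc1 and Ivd. Each symbol matched 1 Ensembl identifier, so the set held 10 of the 50686 genes in the table, and all 10 were among the 15505 genes that passed the filter on low counts. RNA was sequenced from interscapular brown fat (iBAT), the thermogenic depot of the upper back, of male C57BL/6J mice aged 10 weeks. The animals lived at 22 °C with lights on for 12 h of the 24 h day, could eat chow at any time up to the collection of tissue, and were euthanised with CO2. Time is given as Zeitgeber time (ZT), with lights on at ZT0 and lights off at ZT12, and the 8 groups follow each other every 3 h from ZT0 to ZT21, with 4 mice and 1 library per mouse in each.

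Leucine, isoleucine and valine are broken down inside mitochondria. The carrier SLC25A44 brings them across the inner membrane, the transaminase BCAT2 removes the amino group, and the branched-chain ketoacid dehydrogenase (BCKDH) complex commits the resulting ketoacids to oxidation. BCKDH is switched off when its kinase BCKDK phosphorylates it and on when the phosphatase PPM1K removes the phosphate, and IVD and the carboxylase subunit MCCC1 act further down the leucine branch. Brown fat is known as a tissue that takes up and oxidises BCAAs during cold exposure.

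Total counts per library ran from 16300770 to 18254659. Lane 2 carried the libraries of ZT0, ZT3 and ZT6, lane 3 those of ZT9, ZT12 and ZT15, and lane 4 the remaining libraries, so that lane and time of day cannot be told apart between lanes. All 10 brown adipocyte markers looked up were detected, with Ucp1 between 955 and 4318 CPM (counts scaled to a common library total). Skeletal muscle transcripts varied between mice of the same time point. The summed level of 10 muscle markers lay between 2.45 and 7241 CPM, and it exceeded 1000 CPM in 15 of the 32 libraries. Tests over the day and contrasts were also run without those 15 libraries, and the correlations between genes were not. This left 1 mouse at ZT15 and 2 or 3 at each other time point. Of the other lists looked up, 7 white adipocyte markers summed to 49.3 to 421 CPM (4 of the 7 averaged over 1 CPM, and Hoxc9, Hoxc10 and Wdnm1-like did not), 6 leukocyte markers to 27.6 to 197 CPM, 4 endothelial markers to 578 to 892 CPM and 5 stromal markers to 364 to 1222 CPM.

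Of the 10 genes, 3 oscillated over the day and the other 7 did not pass the threshold. Ppm1k, the phosphatase that activates BCKDH, had the largest fitted amplitude of the 10, with its peak late in the light phase. Bcat2 and Ivd rose and fell with smaller amplitudes around the start of the dark phase. With all libraries and TMM factors none of the 4 genes for BCKDH subunits and not the kinase gene Bckdk passed any of the tests. By JTK, which ranks the values of a gene against cosine templates of 21 and 24 h, Bcat2, Ppm1k and Ivd were past P of 0.05, and 36.4% of all genes tested were (27.1% after Benjamini-Hochberg adjustment, which the same 3 genes passed). The same 3 had a 24 h cosine component in edgeR's quasi-likelihood test (36.1% of all genes tested) and differed between the 8 time points (39.8% of all genes tested). With all libraries and TMM factors a share of 3 in 10 is thus near that of all genes. The median fitted amplitude of the 10 genes was 0.09 on the log2 scale, against 0.14 over all genes tested, and their median change between peak and trough was 1.14-fold, against 1.21-fold. Scaling by library size alone in place of TMM factors raised the count of oscillating genes by JTK from 3 to 6, adding Bckdha, Bckdk and Mccc1, while the share of all genes tested was 34.7%. Without replicate 1 of ZT15 the count was 7 by JTK, adding Bckdha, Bckdk, Slc25a44 and Mccc1 (39.0% of all genes tested), and 6 by the cosine (38.3%). Without the 15 muscle-rich libraries 4 of 10 passed by JTK, which were Ppm1k, Ivd, Slc25a44 and Mccc1, against 21.3% of all genes tested, and 2 by the cosine, Ppm1k and Slc25a44, against 17.8%. The same 2 differed between time points there, against 9.64% of all genes tested. In bulk tissue, fewer cells of a type and less RNA per cell cannot be told apart.

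**Figure D1:**
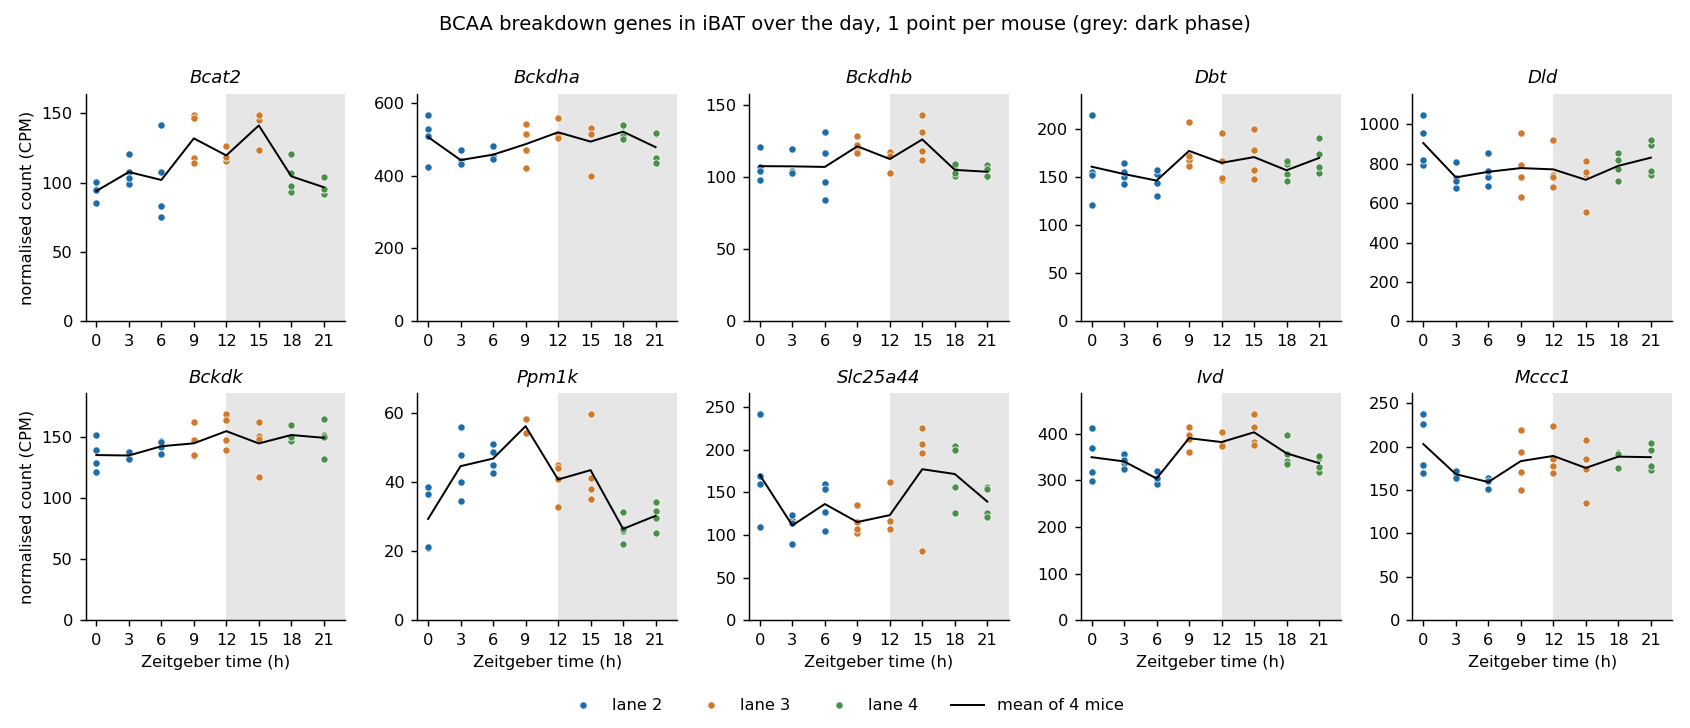
Normalised counts (CPM) of the 10 genes in each of 32 mice against Zeitgeber time, with 1 point per mouse coloured by sequencing lane, the mean of 4 mice as a line and the dark phase in grey. Ppm1k falls from 56.1 CPM at ZT9 to 26.4 CPM at ZT18, while the BCKDH subunits and Bckdk stay within 1.15-fold to 1.26-fold between their lowest and highest time point means.

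Because each time point was on 1 lane, the time points were also compared within lanes, in 1 test of the 5 differences between time points that share a lane. In that test 1 of the 10 genes passed, Ppm1k, against 21.4% of all genes tested. When a 24 h cosine was fitted beside lane, 2 of 10 passed, Ppm1k and Slc25a44, against 17.2% of all genes tested. With the 15 muscle-rich libraries left out 1 of 10 passed within lanes (3.77% of all genes tested) and 1 beside lane (4.85%), and both times it was Slc25a44.

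Slc25a44 (ENSMUSG00000050144, chromosome 3, 88410498 to 88425139, minus strand, GRCm38) encodes the mitochondrial BCAA carrier. Its level averaged 143 CPM ± 41.0 (SD over 32 mice). At ZT3 the 4 mice were at 118, 89.0, 115 and 124 CPM, and at ZT9 they were at 135, 116, 103 and 107 CPM. At ZT15 the values were 80.9, 207, 196 and 225 CPM, and at ZT18 they were 204, 200.2, 156 and 126 CPM. The last 3 mice of ZT15 lay above every mouse of ZT3, ZT6, ZT9, ZT12 and ZT21, whereas the first was the lowest of all 32. At ZT0 the values were likewise spread, at 169.7, 160.3, 242 and 109.8 CPM. The fitted amplitude was 0.24 (SE 0.09, log2 scale) with a peak at ZT18.9 (SE 1.5 h).

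The carrier gene did not pass the cosine test (edgeR adjusted p = 0.0636) or the test between time points (adjusted p = 0.0737), and the exact P of JTK was 0.124. It passed with the cosine fitted beside lane (edgeR adjusted p = 0.0384). Without replicate 1 of ZT15 the edgeR adjusted p was 0.0220 for the cosine and 0.00374 for the time points. The gene also passed by the cosine, between time points, within lanes and by JTK in the 17 libraries that were not muscle-rich. These hold 1 mouse of ZT15, replicate 4 at 225 CPM, the highest of its time point. Replicate 1 of ZT15 is among the libraries left out, so these calls are not separate from the fit without it. DESeq2 called the carrier gene by the cosine (adjusted p = 0.0455), between time points (0.0259) and within lanes (0.0213), and edgeR with library size alone did so as well (0.0381, 0.0383 and 0.0385). A muscle covariate gave 0.0488, 0.0493 and 0.0441 for these tests. Beside lane the call was lost with the replicate number as a block (0.0507), with no filter on low counts (0.0508) and in 12 of the 32 fits that left out a library, with adjusted p up to 0.108. The calls of this gene thus turned with single mice and with the processing.

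Bcat2 (ENSMUSG00000030826, chromosome 7, 45570153 to 45589711, plus strand) encodes the mitochondrial transaminase of the first step. At ZT0 the 4 mice were at 95.4, 95.0, 85.1 and 100.3 CPM. At ZT15 they were at 148, 145, 123 and 149 CPM, and at ZT21 at 92.1, 104, 95.2 and 95.4 CPM. The mice of ZT15 did not overlap those of ZT0 or ZT21, time points picked for their high and low means. The mean rose between ZT0 (94.0 CPM ± 6.39, SD, n = 4) and ZT15 (141 CPM ± 12.1, SD, n = 4). At ZT6 the mice differed most, with 75.0, 83.4, 107 and 142 CPM.

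The amplitude of Bcat2 was 0.23 (SE 0.05, log2 scale) with a peak at ZT12.2 (SE 0.85 h; edgeR adjusted p = 0.00166, exact JTK P = 0.00349). Its higher time points were those of lane 3. Within lanes it did not differ (edgeR adjusted p = 0.425), and for the cosine beside lane the adjusted p was 0.920. When the muscle-rich libraries were left out, Bcat2 had an adjusted p of 0.0996 for the cosine and 0.319 between time points, and a JTK P of 0.0598. Of its exonic bases 15.95% overlap 0610005C13Rik, an antisense gene on the opposite strand. The libraries were stranded, but it is not known here if strand entered the counting, so part of its count is uncertain.

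The BCKDH complex is built from the E1 subunits encoded by Bckdha and Bckdhb, the E2 core encoded by Dbt and the E3 subunit encoded by Dld, which other ketoacid dehydrogenases share. Between the lowest and the highest time point mean, Bckdha changed 1.18-fold, Bckdhb 1.22-fold, Dbt 1.21-fold and Dld 1.26-fold. With all libraries and TMM factors 0 of the 4 passed any of the 5 tests over the day. Of all genes tested 17.2% to 39.8% passed these tests, and the 4 genes were not tested against those shares. Their amplitudes lay between 0.07 for Dbt (SE 0.05) and 0.10 for Bckdhb (SE 0.04) on the log2 scale. Bckdhb had the lowest edgeR adjusted p of the 4 for the cosine, 0.0754, and Dbt the highest, 0.486. By mean level Bckdhb was highest at ZT15 (126 CPM ± 14.1, SD, n = 4), Dbt at ZT9 (177 CPM ± 20.6, SD, n = 4), Bckdha at ZT18 (521 CPM ± 18.5, SD, n = 4) and Dld at ZT0 (905 CPM ± 119, SD, n = 4).

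For Dld the 4 mice of ZT0 were at 1048, 796, 956 and 819.9 CPM and those of ZT3 at 809, 676, 727 and 713 CPM, so that the groups overlapped. For Dbt the spread was widest at ZT0, with 215, 122, 155 and 152 CPM, which holds both the highest and the lowest of its 32 values. Bckdha (chromosome 7, 25629946 to 25658981, minus strand) shares 61.66% of its exonic bases with B3gnt8 on the opposite strand, and its level is uncertain if strand was not used in the counting. With scaling by library size alone, Bckdha passed the cosine test (edgeR adjusted p = 0.0142), which it did not with TMM factors (adjusted p = 0.123), and so it did without replicate 1 of ZT15 (0.0202). Bckdhb passed the cosine test in 3 of the 32 fits that left out a library (replicate 4 of ZT0, 2 of ZT6 or 4 of ZT12, adjusted p up to 0.0466) and the time point test in 1 of them (replicate 4 of ZT6, 0.0224).

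The switch of the complex was uneven at the transcript level. Ppm1k (ENSMUSG00000037826, chromosome 6, 57506502 to 57535468, minus strand) was at 58.1, 54.1, 58.2 and 54.0 CPM at ZT9. It was at 26.0, 22.2, 26.3 and 31.3 CPM at ZT18 and at 31.6, 25.3, 34.3 and 29.7 CPM at ZT21. Every mouse of ZT9 was thus above every mouse of ZT18 and ZT21. The mean fell 2.12-fold between ZT9 (56.1 CPM ± 2.33, SD, n = 4) and ZT18 (26.4 CPM ± 3.73, SD, n = 4). ZT9 and ZT18 were picked for having the highest and the lowest mean, so their separation describes the values and is no test. At ZT0 the mice fell into a high and a low pair, at 36.5, 21.0, 21.2 and 38.5 CPM, and by ZT6 they were at 50.9, 42.6, 45.0 and 48.6 CPM. The summed stromal markers were at 391 to 575 CPM at ZT0, 647 to 1183 CPM at ZT9, 523 to 780 CPM at ZT18 and 364 to 646 CPM at ZT21, and the leukocyte markers at 34.9 to 55.0, 38.2 to 197, 42.7 to 69.4 and 34.1 to 66.4 CPM at these time points. The mean stromal sum was 891 CPM at ZT3, its highest, 834 CPM at ZT9 and 783 CPM at ZT12. Ppm1k averaged 44.6, 56.1 and 40.7 CPM at these time points. The part of these markers in the values of Ppm1k was not tested.

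The fitted amplitude of Ppm1k was 0.47 (SE 0.07, log2 scale), a 1.91-fold change between peak and trough, with the peak at ZT8.46 (SE 0.59 h). The edgeR adjusted p was 4.17e-05 for the cosine and 0.000176 between time points, and the JTK P was 1.91e-06. All 3 calls held in each of the 32 fits that left out a library, with a highest adjusted p of 0.000134 for the cosine. Within lanes the edgeR adjusted p was 0.0161. Among the time points of lane 2, where 19.7% of all genes tested passed, Ppm1k rose by 0.61 (SE 0.18, log2 scale) from ZT0 to ZT3 and by 0.67 (SE 0.18) to ZT6 (adjusted p = 0.0154). On lane 3 it changed by -0.46 (SE 0.18) from ZT9 to ZT12 (adjusted p = 0.196 over the lane, where 5.94% of all genes passed), and on lane 4 by 0.19 (SE 0.18) from ZT18 to ZT21 (adjusted p = 0.681, with 2.06% of all genes past it). Without the 15 muscle-rich libraries the cosine kept an adjusted p of 0.00106, and the tests within lanes and beside lane gave 0.135 and 0.0673. Library size alone moved the adjusted p beside lane from 0.0229 to 0.0542.

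Bckdk (ENSMUSG00000030802, chromosome 7, 127904082 to 127910221, plus strand), the kinase gene, had the smallest ratio between its highest and lowest time point means of the 10, 1.15. Its 32 values lay between 118 and 169 CPM with a median of 146 CPM, and its amplitude was 0.07 (SE 0.03, log2 scale, edgeR adjusted p = 0.112). Bckdk passed the cosine test with library size alone (adjusted p = 0.0267) and without replicate 1 of ZT15 (0.0126), and there its JTK P was 0.00827 and 0.00965. Without replicate 3 of ZT0 its JTK P was 0.0491. The count of Bckdk divided by that of Ppm1k in the same mouse was 2.59 ± 0.333 (SD, n = 4) at ZT9 and 5.83 ± 1.00 (SD, n = 4) at ZT18. The highest ratio at ZT9 was 2.99 and the lowest at ZT18 was 4.78. These ratios are not per length and were not tested on their own, since they restate the counts of both genes.

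**Figure D2:**
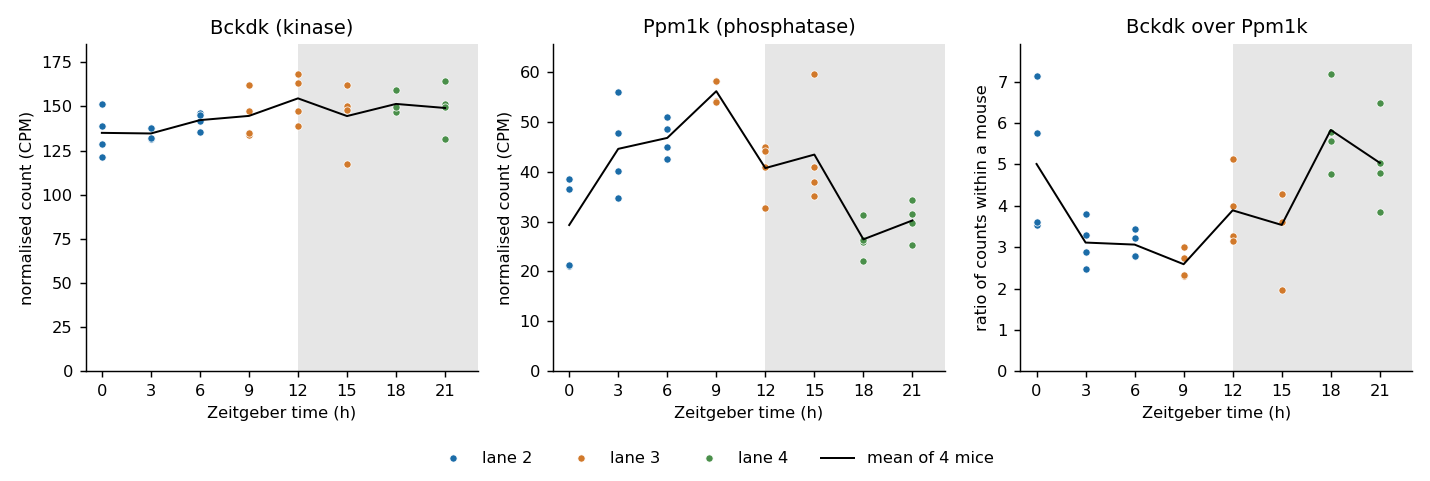
Normalised counts (CPM) of the kinase Bckdk and the phosphatase Ppm1k and the ratio of their counts within each mouse, against Zeitgeber time, with 1 point per mouse coloured by lane, the mean of 4 mice as a line and the dark phase in grey. The mean ratio is 2.59 at ZT9 and 5.83 at ZT18, and the mice of these time points do not overlap.

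In the leucine branch, Ivd, which encodes isovaleryl-CoA dehydrogenase (ENSMUSG00000027332, chromosome 2, 118861954 to 118882909, plus strand), oscillated with a small amplitude. At ZT6 the mice were at 297, 293, 305 and 321 CPM. At ZT9 they were at 414, 389.8, 361 and 397 CPM, and at ZT15 at 382, 442, 375 and 414 CPM. Every mouse of ZT9 and ZT15 lay above every mouse of ZT6, time points picked for their high and low means. The amplitude was 0.13 (SE 0.03, log2 scale) with a peak at ZT13.9 (SE 0.94 h; edgeR adjusted p = 0.00913 for the cosine and 0.00263 between time points, exact JTK P = 0.00282). The step from ZT6 to ZT9 is also the step from lane 2 to lane 3, and within lanes the adjusted p was 0.236. When the muscle-rich libraries were left out, Ivd had an adjusted p of 0.147 for the cosine and 0.284 between time points, and a JTK P of 0.0462. The summed white adipocyte markers, led by Lep and Retn, also differed between these time points, at 49.3 to 82.5 CPM at ZT6, 84.4 to 326 CPM at ZT9 and 213 to 421 CPM at ZT15, where Bcat2 was highest as well. The study itself lists Lep and Nnat, which are in this sum, as genes that oscillate with a large relative amplitude. The part of these markers in the values of Ivd and Bcat2 was not tested.

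Mccc1 (ENSMUSG00000027709, chromosome 3, 35959312 to 36000678, minus strand), the biotin-carrying subunit of the next enzyme of the branch, did not pass a test over the day (edgeR adjusted p = 0.320 for the cosine, exact JTK P = 0.0862). It was lowest at ZT6, with 162, 164, 160.1 and 151 CPM, and highest in mean at ZT0, where the mice were spread over 237, 179, 226 and 169 CPM. With library size alone, with 24 h templates only, and without the muscle-rich libraries its JTK P was 0.0436, 0.0460 and 0.0464.

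**Figure D3:**
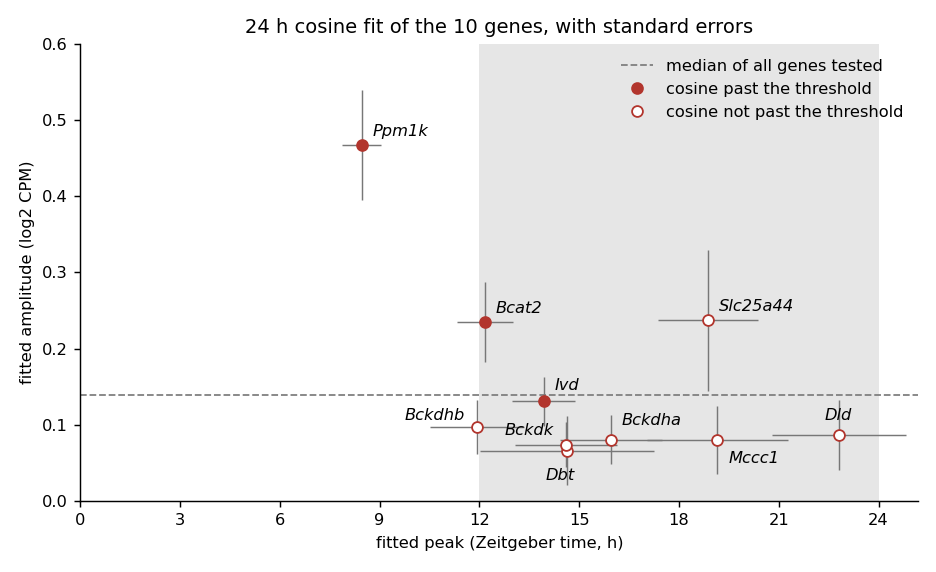
Fitted amplitude (log2 CPM) against the fitted peak (Zeitgeber time in h) of the 10 genes, with standard errors as bars, filled points for genes whose 24 h cosine passed the threshold, the dark phase in grey and the median of all genes tested as a dashed line. Ppm1k stands at 0.47 and ZT8.46, Bcat2 and Slc25a44 have near-equal amplitudes of 0.23 and 0.24 at different peaks, and the other 7 lie at or under 0.13.

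A single mouse held the extreme value of 6 of the 10 genes. For how many of all genes it did so was not counted, so this is not read as a trait of the 10. Leaving it out gave 6049 of all genes by JTK, the most of the 32 fits that left out a library. Replicate 1 of ZT15 had the lowest of all 32 values for Bckdha (398 CPM), Dld (553 CPM), Bckdk (118 CPM), Slc25a44 (80.9 CPM) and Mccc1 (135 CPM), and the highest for Ppm1k (59.6 CPM). The other mice of ZT15 were at 37.8, 35.2 and 41.0 CPM for Ppm1k and at 815, 747 and 759 CPM for Dld. The same library had the highest summed muscle markers of all 32, at 7241 CPM, and the part of muscle RNA in its values was not tested. No other library held the extreme of more than 3 of the genes, and that was replicate 1 of ZT0, the highest for Dbt, Dld and Mccc1, whose muscle markers summed to 3.85 CPM.

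Levels of different genes were compared only per length, as CPM per kilobase (kb) of exon averaged over the 32 mice. Bckdha stood highest at 257 CPM per kb ± 24.0 (SD, n = 32), followed by Dld at 213 ± 28.0, and these neighbours overlapped within 1 SD. Ivd at 65.1 ± 7.03 and Bckdhb at 61.8 ± 6.72 CPM per kb overlapped as well, as did Dbt at 48.6 ± 6.27 with Slc25a44 at 40.0 ± 11.4 and Slc25a44 with Bckdk at 39.1 ± 3.39. Bcat2 at 28.8 ± 5.31, Mccc1 at 16.6 ± 2.13 and Ppm1k at 6.59 ± 1.90 CPM per kb followed, each apart from the next. The oscillating phosphatase was thus the lowest of the set per length. Lengths are the union of all annotated exons, and which of them are used in brown fat was not measured, so the order depends on the annotated lengths. The places of Bckdha and Bcat2 also depend on whether strand was used in the counting, given their overlaps on the opposite strand.

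**Figure D4:**
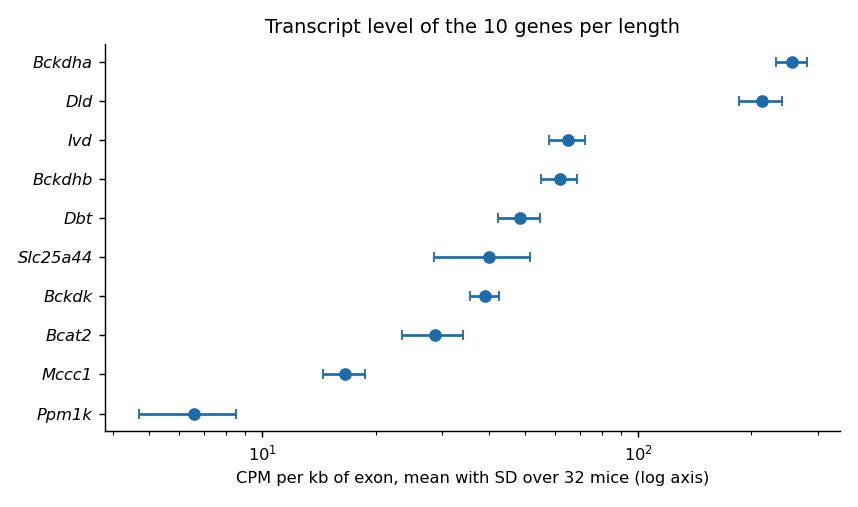
Mean level of each of the 10 genes in CPM per kb of exon on a log axis, with the SD over 32 mice as bars. The levels run from 257 CPM per kb for Bckdha to 6.59 CPM per kb for Ppm1k.

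The sequences before the start sites are shown for the 3 oscillating genes, since these passed the JTK, cosine and time point tests. They are the 250 bases before each start in RefSeq on GRCm38.p6, given 5′ to 3′ on the gene's own strand, with the nuclear receptor half-site AGGTCA and the KLF family box CACCC in capitals on either strand (TGACCT and GGGTG are their reverse complements). RefSeq promoters were matched for 8 of the 10 genes, with 10 start sites. Dbt and Slc25a44 had none in the table.
Ppm1k (chr6:57535488-57535737, - strand): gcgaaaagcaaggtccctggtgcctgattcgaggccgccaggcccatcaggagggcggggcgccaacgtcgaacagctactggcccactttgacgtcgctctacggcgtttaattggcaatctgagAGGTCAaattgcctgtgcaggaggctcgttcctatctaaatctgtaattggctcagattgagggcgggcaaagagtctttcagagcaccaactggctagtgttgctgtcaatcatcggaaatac
Bcat2, first start (chr7:45569903-45570152, + strand): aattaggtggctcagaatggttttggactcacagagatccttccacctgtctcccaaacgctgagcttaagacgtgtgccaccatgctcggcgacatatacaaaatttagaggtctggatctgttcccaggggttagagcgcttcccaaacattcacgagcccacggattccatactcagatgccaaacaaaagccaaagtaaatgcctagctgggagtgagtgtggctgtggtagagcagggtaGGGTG
Bcat2, other start (chr7:45571029-45571278, + strand): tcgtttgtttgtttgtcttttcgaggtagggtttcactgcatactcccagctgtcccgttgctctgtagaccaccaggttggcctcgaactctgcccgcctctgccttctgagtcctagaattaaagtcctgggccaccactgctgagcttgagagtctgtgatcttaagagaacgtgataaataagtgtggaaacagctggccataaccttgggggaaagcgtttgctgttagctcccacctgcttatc
Ivd (chr2:118861744-118861993, + strand): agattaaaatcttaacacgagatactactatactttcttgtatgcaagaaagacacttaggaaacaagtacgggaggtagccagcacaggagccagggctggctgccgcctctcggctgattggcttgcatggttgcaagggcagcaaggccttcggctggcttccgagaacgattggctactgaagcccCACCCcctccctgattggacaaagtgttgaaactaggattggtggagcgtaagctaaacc

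The window of Ppm1k held AGGTCA once, the first window of Bcat2 and that of Ivd held CACCC once, and the other window of Bcat2 held neither, so no matches overlapped. Over the 10 start sites, 2 windows held AGGTCA (Ppm1k and the first of Bckdhb) and 5 held CACCC. Of all 32851 promoters of the same length, 14.0% held AGGTCA and 52.0% held CACCC on either strand. The E-box CACGTG (6.02% of all promoters) and the D-box TTATGTAA (0.819%) were in none of the 10 windows. A match describes letters and not a bound site.

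Lights off was set against lights on (ZT12 and ZT0), and the middle of the dark phase against the middle of the light phase (ZT18 and ZT6). Between ZT12 and ZT0, 0 of the 10 genes passed (edgeR, BH-adjusted p under 0.05), against 15.9% of all genes tested (7.71% higher and 8.15% lower at ZT12). At an unadjusted p under 0.05 there were 3, which were Bcat2, Ppm1k and Bckdk, against 30.1% of all genes tested. DESeq2 called 2, Bcat2 (adjusted p = 0.0469) and Ppm1k (adjusted p = 0.0471), against 16.7% of all genes. In edgeR the log2 fold change of Ppm1k was 0.47 (SE 0.18, adjusted p = 0.0704) and that of Bcat2 was 0.35 (SE 0.13, adjusted p = 0.0659). Of the 32 fits that left out a library, 4 called Ppm1k (without replicate 1 or 4 of ZT0, replicate 1 of ZT12 or replicate 1 of ZT15, highest adjusted p 0.0477) and 2 called Bcat2 (without replicate 1 or 4 of ZT6, highest adjusted p 0.0396). Slc25a44 differed by -0.47 (SE 0.24, adjusted p = 0.182), and by -0.25 without replicate 3 of ZT0 (adjusted p = 0.548). Leaving out the muscle-rich libraries kept 2 mice at ZT0 and 2 at ZT12. There the difference was 0.43 for Ppm1k, 0.30 for Bcat2 and -0.29 for Slc25a44, and none of these was called. The median over the 10 genes was 0.05, against 0.00 over all genes tested.

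Between ZT18 and ZT6, 2 of the 10 passed, against 16.9% of all genes tested. Ppm1k was lower at ZT18 (log2 fold change -0.82, SE 0.18, edgeR adjusted p = 0.00231; 8.68% of all genes tested were lower), with all 4 mice of ZT18 below all 4 of ZT6. Ivd was higher at ZT18 (0.24, SE 0.08, edgeR adjusted p = 0.0369; 8.18% of all genes tested were higher). The call of Ivd was lost in 5 of the 32 fits that left out a library, without replicate 1, 2 or 3 of ZT6 or replicate 2 or 4 of ZT18, without the filter on low counts (adjusted p = 0.113) and in a fit of the 8 libraries alone (adjusted p = 0.0580). The call of Ivd was also lost when the 15 muscle-rich libraries were left out (0.17, adjusted p = 0.422). There 2 of 10 passed, against 7.34% of all genes tested, since Ppm1k kept its call (-1.01, adjusted p = 0.0108) and Slc25a44 passed with 0.62 (adjusted p = 0.0382), which it did not with all libraries (0.33, adjusted p = 0.364). The median over the 10 genes was 0.10, against 0.00 over all genes tested.

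For each oscillating gene, the 3 genes with the most similar values over the 32 libraries were looked up by Pearson's r on log2 CPM, as a description that mixes time of day, lane and differences between mice. For Ppm1k these were Lrp1, a lipoprotein receptor (r = 0.882), Josd1 (0.858) and Sgsm2 (0.850), with fitted peaks between ZT7.45 and ZT8.81. For Bcat2 they were Glud1 (0.885), Kansl3 (0.834) and Slc7a8 (0.825). Glud1 encodes glutamate dehydrogenase, which handles the amino group that transamination passes on, and Slc7a8 a plasma membrane carrier of neutral amino acids. For Ivd they were Adhfe1 (0.866), 2610507B11Rik (0.851) and Gstz1, an enzyme of tyrosine breakdown (0.837).

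Whether genes of the pathway moved together among mice of the same time point was tested for 4 pairs, on deviations of log2 CPM from the time point means in 32 mice, by permuting mice within time points (two-sided, BH over the 4 pairs). The carrier Slc25a44 and the transaminase Bcat2 deviated in opposite directions, with r = -0.482 (permutation p = 0.00258, adjusted 0.0103) and Spearman's rho = -0.504 (permutation p = 0.00614, adjusted 0.0246). Leaving out the 2 mice with Slc25a44 farthest from its median gave r = -0.547. By lane r was -0.707 on lane 2 (exact permutation p = 0.000723), -0.311 on lane 3 (exact permutation p = 0.324) and -0.398 on lane 4 (exact permutation p = 0.465), so the sign was shared and lane 2 alone passed.

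**Figure D5:**
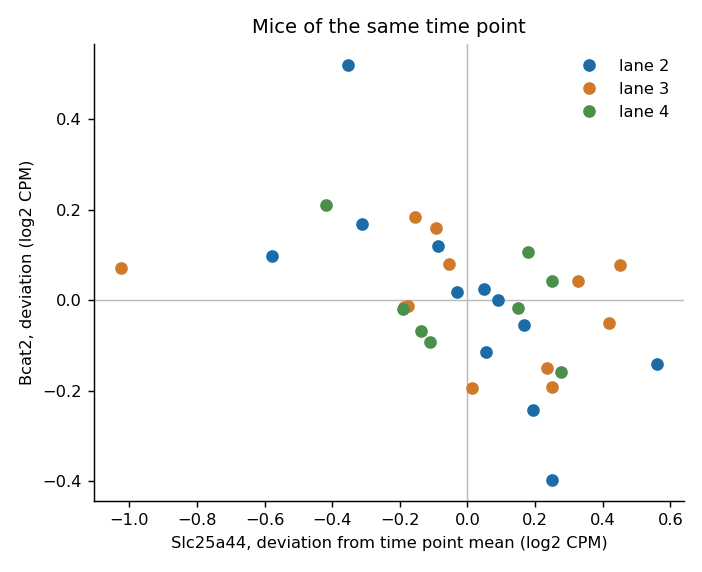
Deviation of Bcat2 against that of Slc25a44 from their time point means (both in log2 CPM), with 1 point per mouse coloured by lane. Mice with less Bcat2 than others of their time point tend to have more Slc25a44, with r = -0.482 over 32 mice.

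Bckdk and Ppm1k had r = -0.463 (permutation p = 0.0419, adjusted 0.0838) and rho = -0.473 (permutation p = 0.0260, adjusted 0.0520). Leaving out the 2 mice with the most distant Bckdk gave r = -0.303, and by lane it was 0.037 on lane 2 (exact permutation p = 0.917), -0.849 on lane 3 (exact permutation p = 0.00195) and -0.774 on lane 4 (exact permutation p = 0.0330). The p by lane are unadjusted, the lanes were not tested against each other, and the pooled relation did not pass after adjustment. The E1 subunit genes Bckdha and Bckdhb had r = -0.003 (permutation p = 0.989). By lane r was -0.457 on lane 2 (exact permutation p = 0.0642), 0.482 on lane 3 (0.229) and 0.368 on lane 4 (0.377). Klf15, a transcription factor known to induce BCAA breakdown genes in muscle, and Bcat2 had r = 0.337 (permutation p = 0.0701, adjusted 0.0935) and rho = 0.354 (permutation p = 0.0637, adjusted 0.0849), with r of 0.621 on lane 2 (exact permutation p = 0.0246), -0.121 on lane 3 (0.662) and 0.229 on lane 4 (0.622).

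The rest of the pathway was covered by a list of 26 further genes, all of which were tested. By JTK 9 of 26 oscillated, near the 36.4% of all genes tested, and the 10 with a cosine component (36.1% of all genes) and the 9 that differed between time points (39.8%) were near it too. Within lanes 2 differed (21.4% of all genes) and beside lane 1 had a cosine component (17.2%). Leaving out the muscle-rich libraries, 3 of 26 oscillated by JTK, which were Mmaa, Mmab and Slc7a8, against 21.3% of all genes tested. There 5 had a cosine component (17.8% of all genes), 2 differed between time points (9.64%), 1 within lanes (3.77%) and 1 beside lane (4.85%). Mmab, Pdhb and Kgd4 are named for these counts, after their values were seen. The median amplitude of the list was 0.09, against 0.14 over all genes tested. By branch, 2 of 3 other leucine genes, 0 of 8 genes of the isoleucine and valine branches and 2 of 6 genes from propionyl-CoA to succinyl-CoA oscillated by JTK. Among carriers of large neutral amino acids in the plasma membrane 3 of 5 did. These counts are small, and no branch was tested against the 36.4% of all genes. Mmaa, which serves the cobalamin-dependent mutase, rose between ZT3 (57.1 CPM ± 2.68, SD, n = 4) and ZT18 (74.6 CPM ± 6.26, SD, n = 4), and was the one gene of the list past the threshold both within lanes (edgeR adjusted p = 0.000711) and beside lane (0.00228), where it had 0.0477 and 0.0394 without the muscle-rich libraries. The carrier genes Slc43a1 and Slc43a2 were lower at ZT18 than at ZT6, by log2 fold changes of -1.001 (SE 0.27, edgeR adjusted p = 0.0126) and -1.18 (SE 0.24, adjusted p = 0.00106). Without the muscle-rich libraries Slc43a1 was at -0.84 (adjusted p = 0.129) and Slc43a2 at -1.33 (adjusted p = 0.0243), and their JTK P moved from 0.00175 to 0.0641 and from 0.000427 to 0.382. Glud1 rose between ZT0 (207 CPM ± 21.7, SD, n = 4) and ZT15 (286 CPM ± 17.5, SD, n = 4), and as for Bcat2 its time points did not differ within lanes (edgeR adjusted p = 0.382). Without the muscle-rich libraries Glud1 passed no test over the day (exact JTK P = 0.586, edgeR adjusted p = 0.141 for the cosine and 0.333 between time points).

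Of 4 transcription regulators known for this pathway, 3 oscillated by JTK (36.4% of all genes tested) and all 4 had a cosine component beside lane (17.2% of all genes), and both counts were the same without the 15 muscle-rich libraries. Within lanes 3 passed (21.4% of all genes), and 1 did without those libraries (3.77%), where Klf15 had an adjusted p of 0.0562 and Mlxipl of 0.1002. Mlxipl was also lost within lanes in 16 of the 32 fits that left out a library (adjusted p up to 0.0879). Beside lane Ppara was not called with library size alone (adjusted p = 0.0519) or in 5 of the 32 fits that left out a library (replicates 1 and 3 of ZT0, 3 and 4 of ZT9 and 4 of ZT15, adjusted p up to 0.0740), and Ppargc1a was not called in 3 of them (replicate 2 of ZT0 and replicates 3 and 4 of ZT6, up to 0.113). Klf15 had an amplitude of 0.91 (SE 0.09, log2 scale) and a peak at ZT9.06, and rose between ZT0 (18.6 CPM ± 4.81, SD, n = 4) and ZT9 (55.7 CPM ± 5.68, SD, n = 4) (edgeR adjusted p = 6.98e-09 for the cosine, and 6.91e-05 without the muscle-rich libraries). Ppara, the fatty acid receptor of oxidative tissues, peaked at ZT8.58, and Mlxipl, the carbohydrate-response factor ChREBP, at ZT20.6. Ppargc1a, a coactivator of mitochondrial genes, did not pass the cosine test (edgeR adjusted p = 0.0985) except beside lane (0.0218), while DESeq2 called it between time points (0.0429) and within lanes (0.0387).

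The sister complexes that share Dld or the same kind of switch are pyruvate dehydrogenase (PDH), oxoglutarate dehydrogenase (OGDH) and the glycine cleavage system. Of their 16 genes 15 were tested and 4 oscillated by JTK, against 36.4% of all genes tested. These were Pdhb, which encodes a subunit of PDH, and Pdk4, Pdk2 and Pdp2, which encode its kinases and a phosphatase. After BH adjustment 2 remained, Pdk4 and Pdk2, since Pdhb was at 0.123 and Pdp2 at 0.0841 (27.1% of all genes passed). Without the muscle-rich libraries 3 passed by JTK, which were Pdk4, Pdk2 and the OGDH subunit gene Kgd4, against 21.3% of all genes tested. Pdk4, a PDH kinase, ranged between ZT15 (458 CPM ± 124, SD, n = 4) and ZT3 (1913 CPM ± 274, SD, n = 4), with an amplitude of 0.66 (SE 0.17, log2 scale, edgeR adjusted p = 0.00380 for the cosine, and 0.0142 without the muscle-rich libraries). Pdk2 rose between ZT0 (282 CPM ± 19.0, SD, n = 4) and ZT15 (357 CPM ± 34.3, SD, n = 4), and Pdp2, a PDH phosphatase, peaked at ZT9.42 with an amplitude of 0.23 (SE 0.06). The JTK call of Pdp2 was lost in 7 of the 32 fits that left out a library (P up to 0.0890). Its call between time points (edgeR adjusted p = 0.0372) was lost in 6 of them (up to 0.103). Without the muscle-rich libraries Pdk2 did not differ between time points (edgeR adjusted p = 0.246, exact JTK P = 0.0384) and Pdp2 passed no test (0.192 for the cosine, 0.432 between time points). Amt of the glycine cleavage system differed between time points (edgeR adjusted p = 0.0290) without a cosine component (0.151). That call was lost with library size alone (0.0619), with no filter (0.0607) and without the muscle-rich libraries (0.270). Gldc, at 0.0600 to 0.696 CPM, was not tested. Whether the kinases of BCKDH and PDH differ in amplitude was not tested.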

How the data were processed

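The deposited values are raw counts per Ensembl gene. Per the labels and the methods of the study, the authors sequenced stranded paired-end libraries of total RNA, and their processing notes name GSNAP, HTSeq (version 0.6.1) and the genome build mm10. The authors applied no normalization to these counts, and whether strand was used in counting is not given in the sources used here. The edgeR function filterByExpr (version 4.0.16 in R 4.3.3), grouped by time point, removed low counts, and TMM factors scaled the rest. CPM are counts relative to the scaled library totals, and log2 values use a prior count of 2.

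For oscillation, JTK_CYCLE was reimplemented on CPM, with P multiplied over the 15 templates of a gene and a threshold of 0.05 as in the study. The main count models used edgeR's quasi-likelihood test over the 15505 genes, fitted to all 32 libraries. Their p were adjusted by Benjamini-Hochberg (BH), with a threshold of 0.05. Adjusted p in the text are of that kind unless another setting is named. Count models of other settings could hold other numbers of genes, 16063 without the muscle-rich libraries and 30586 with no filter. The main models tested cosine and sine terms of 24 h, any difference between time points, the 5 differences within lanes, the cosine with lane as a factor, and 2 contrasts. The unit of replication is the mouse. On simulated counts JTK and the edgeR tests of the cosine and of time points were run. The tests within lanes, beside lane and of contrasts, and DESeq2, were not.

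The genes and lists were chosen with earlier results of these data known. All 10 genes are named, and of each other list the 4 genes with the lowest p between time points. Symbols, coordinates and exon lengths come from the GENCODE annotation of GRCm38 and promoters from RefSeq (GRCm38.p6). Of the 48 possible pairs of mice sharing a time point, all differed by more than counting noise (lowest mean chi-square per gene 7.63), so all were kept as separate samples. Alternatives were DESeq2 (version 1.42.0) and its size factors, library size alone, no mitochondrially encoded genes, no filter, other templates, the libraries of a contrast alone, the replicate number as a block, and leaving out each library. Leaving out the 15 muscle-rich libraries and a muscle covariate were added after the data were seen. Floors and intervals are not given, since all 10 genes had counts in every library.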

Additional observations from a re-analysis of the deposited data

Results flagged for a closer look

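In each of the 80 sets of 4 mice (10 genes at 8 time points), the highest or the lowest mouse was compared with the other 3 by Dixon's ratio, the gap to its nearest neighbour over the whole range. Chance passes the 95% critical value in about 5% of sets, and 5 of the 80 passed. Replicate 3 of ZT15 was low for Bcat2, at 123 CPM against 145 to 149 CPM (ratio 0.857). For Bckdha, replicate 1 of ZT12 was high, at 558 CPM against 503 to 512 CPM (ratio 0.833), and replicate 1 of ZT15 was low, at 398 CPM against 516 to 531 CPM (ratio 0.890). Replicate 1 of ZT3 was high for Bckdhb, at 119.6 CPM against 103 to 105 CPM (ratio 0.910), and replicate 1 of ZT12 was high for Ivd, at 403 CPM against 374 to 377 CPM (ratio 0.886).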

How the results depend on the processing

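Ppm1k, Bcat2 and Ivd kept their cosine, time point and JTK calls under every alternative run, except that without the muscle-rich libraries Bcat2 lost all 3 and Ivd the cosine and time point calls. Percentages here are shares of all genes tested in the same setting. With library size alone, 6 of the 10 genes were called by JTK (34.7%), 6 by the cosine (34.0%), 2 within lanes (18.7%), 1 beside lane (14.9%), 1 between ZT12 and ZT0 (14.8%) and 4 between ZT18 and ZT6 (15.1%). DESeq2 called 2 within lanes (26.4%) and 2 between ZT12 and ZT0 (16.7%). With the muscle covariate the count within lanes rose from 1 to 2 (21.8%). Beside lane 1 of 10 was called with no filter (6.80%), 1 without the muscle-rich libraries (4.85%) and 1 with the replicate number as a block (16.0%), and between ZT18 and ZT6 1 with no filter (6.09%). The 8 libraries alone gave 1259 genes (8.74%) and 1 of the 10 between ZT12 and ZT0.

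Without the 15 muscle-rich libraries, which leaves 17 and a lone mouse at ZT15 assumed to vary like the others, fewer genes were called: 3302 by JTK, 2863 by the cosine, 1548 between time points, 605 within lanes, 779 beside lane, 366 between ZT12 and ZT0 and 1179 between ZT18 and ZT6. There Bcat2 turned to -0.12 (log2 fold change, ZT18 against ZT6). Spearman's rho of Bckdha and Bckdhb was 0.00623, against r of -0.003.

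Leaving out each library in turn gave 3 to 7 of the 10 genes by JTK, with 5335 to 6049 of all genes. By the cosine it gave 3 to 6, with 5104 to 5997 of all genes. Both counts of the 10 were highest without replicate 1 of ZT15. Within lanes there were 1 to 2 (2747 to 3964 of all genes) and beside lane 1 to 2 (2132 to 3249). Between ZT12 and ZT0 there were 0 to 1 (1682 to 2684 of all genes), and between ZT18 and ZT6 1 to 2. In that last contrast 1733 (without replicate 2 of ZT18) to 2804 genes passed and Bcat2 ran from -0.085 to 0.23.

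Replicate numbers did not pair the mice: over 112 same-numbered pairs of libraries the correlation of deviations ran from -0.726 to 0.767, with a median of -0.119, and 49 exceeded 0.1. The block changed no other count of the 10 genes by over 1.5 times.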
